A study of Mus musculus with 6 samples.

Results

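The suppressors of cytokine signaling (SOCS) family comprised 8 genes, Cish and Socs1 to Socs7, taken as every probe to which the array annotation gives 1 of these names. They are 8 of the 36028 genes with a usable probe and were measured by 12 of the 55681 probes. All 8 were among the 24648 genes tested, and all 12 probes were well above background on all 6 arrays. N18-Fms cells are a neomycin-resistant, luciferase-expressing subclone of the clonal epithelial line C2H, which came from a prostate tumor of a TRAMP mouse. A retrovirus carrying murine c-fms cDNA gave them the CSF-1 receptor (CSF-1R), and cells with the receptor on their surface were sorted by flow cytometry, so every group is a sorted population from 1 clone that also secretes CSF-1 itself. All groups were grown with serum and dihydrotestosterone. The Control group was left unstimulated (treatment label vehicule), while the groups labelled 24H CSF1 and 48H CSF1 were given recombinant murine CSF-1 (100 ng/mL) over the 24 h or 48 h in their names. Each group had 2 single-color arrays, and the RNA came from 2 independent experiments. The study's methods give shorter times than the labels, and the labelled times are used here.

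SOCS proteins carry an SH2 domain, which binds phosphorylated tyrosines on receptors and kinases, and a C-terminal SOCS box, which recruits Elongin B, Elongin C and Cullin 5 into a ubiquitin ligase. Cytokines that act through JAK kinases and STAT transcription factors commonly induce Cish, Socs1, Socs2 and Socs3, whose products then restrain the same pathway. In macrophages, several SOCS genes are known feedback inhibitors of cytokine responses, and CSF-1R is itself a receptor tyrosine kinase rather than a JAK-coupled receptor.

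On each array, between 58.7% and 72.0% of the 59305 spots other than controls were well above background and 0 were saturated. The other 5 arrays shared a slide that did not hold the first 24H CSF1 array, so a slide term in the fit is the same as leaving that array out. In each group, both arrays were well above background for 6 of 10 epithelial markers, among them Krt8, Krt5, Krt14, Cldn4 and Esrp1, and the summed signal of the list was 446 to 506 in Control, 567 to 652 at 24 h and 698 to 796 at 48 h. Krt8 rose at 48 h (log2 fold change 1.98, adjusted p = 0.0106), and no group had both its arrays well above background for the defining markers Epcam, Cdh1 and Ocln. The basal factor Trp63 was well above background on all 6 arrays, whereas the prostate lineage markers Hoxb13 and Tmprss2 were not well above background on any array. Of 11 leukocyte and macrophage markers, 7 were well above background on both arrays in Control, 8 at 24 h and 7 at 48 h. The leukocyte marker Ptprc was well above background on all 6 arrays, whereas the defining markers Lyz2 and Spi1 were not on any array. Of the list, 2 rose at both times (Mrc1 and Cd14). Its summed signal was 27400 to 28200 in Control, 22900 to 26500 at 24 h and 18900 to 22800 at 48 h. Most of that sum came from the probe of Itgam (23200 and 22900 in Control), which did not pass the test (-0.43, adjusted p = 0.264, and -0.65, adjusted p = 0.12). Of 7 fibroblast and smooth muscle markers, 4 fell at both times (Col1a1, Col1a2, Pdgfrb and Acta2) and 1 rose at 24 h (Pdgfra, log2 fold change 1.33, adjusted p = 0.0176), and the list's summed signal was 186000 to 211000 in Control, 84400 to 84500 at 24 h and 73200 to 90500 at 48 h. Of 5 endothelial markers, Cdh5 rose at both times (3.87, adjusted p = 0.00308, and 3.97, adjusted p = 0.00234, with 1 of 2 Control arrays well above background) and Vwf rose at 24 h (0.93, adjusted p = 0.042), while the list's summed signal was 11500 to 14000 in Control, 12300 to 13700 at 24 h and 11300 to 11900 at 48 h. Cdh5 passed the filter on dim probes only through the stimulated groups, so its adjusted p-values are not independent of that filter. The part of these shifts in the SOCS values was not tested. The mRNA of Csf1r, the receptor itself, did not pass the test at 24 h (log2 fold change 0.22, adjusted p = 0.367) or at 48 h (-0.07, adjusted p = 0.793).

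The first question was which SOCS genes differed between unstimulated and CSF-1-stimulated cells. After 24 h, 5 of the 8 genes were upregulated (Cish, Socs1, Socs2, Socs3 and Socs6) and none was downregulated, while 14% of all genes tested changed in either direction with 8.02% upregulated and 5.99% downregulated. After 48 h, the same 5 genes were upregulated and none was downregulated, against 14% of all genes tested in either direction, 6.58% upregulated and 7.38% downregulated. Of all genes tested, 4.91% were upregulated and 4.04% downregulated at both times. At an unadjusted p below 0.05 with a change of at least 2-fold, limma called 4 members at each time, all higher (Cish, Socs1, Socs2 and Socs3), against 7.68% of all genes tested at 24 h (5.86% higher) and 6.49% at 48 h (4.66% higher). Socs4, Socs5 and Socs7 did not pass the test at either time. A gene was called with limma's moderated test at a Benjamini-Hochberg adjusted p below 0.05 over the 24648 genes. Without the adjustment, limma's p was below 0.05 for 0 lower genes at 24 h and for 1, Socs4, at 48 h, and the counts of lower genes with the t-test that the study's methods name (the methods' t-test) were also 0 and 1. The share of all genes tested with an unadjusted p below 0.05 alone is not given here. Such counts, here and below, therefore have no background rate beside them.

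The median log2 fold change of the 8 genes was 1.14 at 24 h and 1.26 at 48 h, against 0.04 and -0.04 over all genes tested. Both comparisons use the same Control arrays and are therefore not independent. The arrays of the groups compared did not overlap for 7 of the 8 genes at each time, but the same held for 59% of all genes tested at 24 h and 58.8% at 48 h, since each group has 2 arrays. With median centring in place of the 75th percentile, the median over all genes moved to -0.25 and -0.14, and 24.4% of all calls at 24 h were increases instead of 57.3%, but the same 5 SOCS genes stayed upregulated at both times. With 2 arrays in each group, the smallest p of an exact 2-sided permutation test is 0.333. When each array was left out in turn, between 4 and 5 members were called at 24 h. At 48 h the number was 2 without the first Control array, 3 without the first 48H CSF1 array, 4 without the second Control or the second 48H CSF1 array and 5 without either 24H CSF1 array. Without the first 24H CSF1 array, which leaves the arrays of 1 slide, the log2 fold change at 24 h was 3.38 for Cish (adjusted p = 0.0131), 1.87 for Socs2 (0.036), 3.86 for Socs3 (0.0186), 0.91 for Socs6 (0.0483) and 1.38 for Socs1 (0.056). In bulk RNA, more RNA per cell and more cells expressing a gene cannot be told apart.

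**Figure D1:**
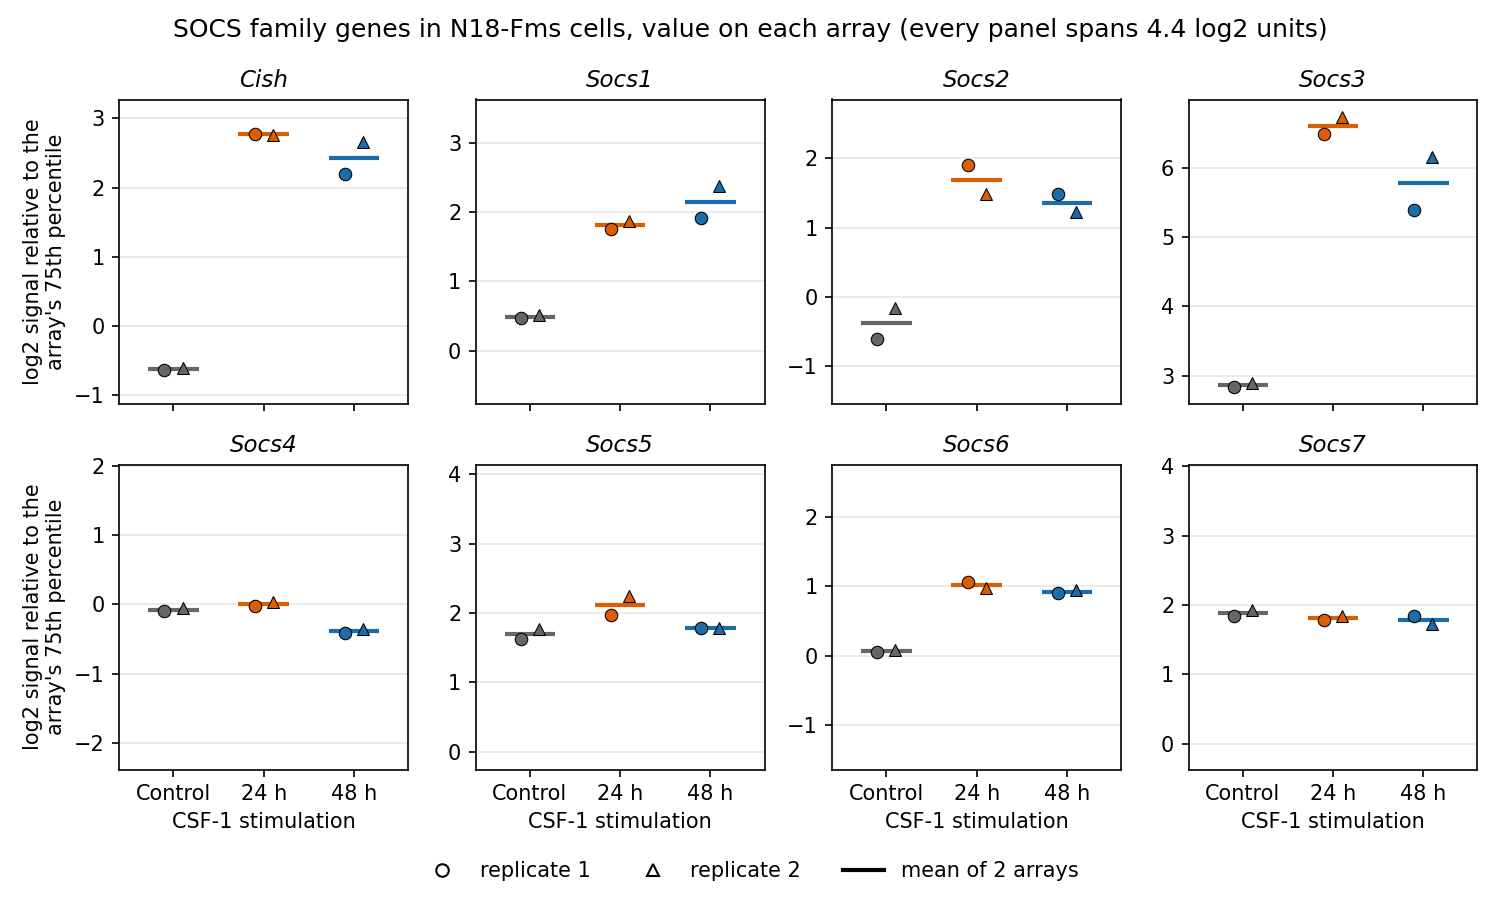
Each panel shows 1 gene on the 6 arrays, with the log2 signal relative to the array's 75th percentile on the y axis and the unstimulated and CSF-1-stimulated groups on the x axis. Circles are replicate 1, triangles replicate 2 and bars the mean of 2 arrays. The stimulated arrays lie above both Control arrays for Cish, Socs1, Socs2, Socs3 and Socs6.

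Values are given as the log2 of the background-subtracted signal relative to the 75th percentile of the same array, so that 0 is the signal of a spot at that percentile. They compare 1 probe between groups, and levels are not compared between genes because probes differ in how strongly they bind. To show what was measured, the first 30 of the 60 bases of the probe are printed for the 4 genes that changed by more than 2-fold, as the array files list them and in lower case throughout because no base is singled out. On mouse build mm9, these probes lie at chr9:107204196-107204255 on the plus strand (Cish), chr16:10783951-10784010 on the minus strand (Socs1), chr10:94875066-94875125 on the minus strand (Socs2) and chr11:117827480-117827539 on the minus strand (Socs3), and start at bases 2064, 1110, 1220 and 2585 of the annotated transcripts.
Cish: actttagaaaacaagtgttagaacacaaga
Socs1: gagggtctctggcttcatttttctgctgtg
Socs2: aggtgtgaagatgtagctaggtattttaaa
Socs3: ccttcgaggctgtctgaagatgcttgaaaa

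Cish and Socs2 encode the SOCS proteins known for restraining STAT5 and growth hormone receptor signaling. Cish lay at -0.63 and -0.61 on the Control arrays, at 2.77 and 2.76 after 24 h and at 2.2 and 2.66 after 48 h. The stimulated arrays were thus far above both Control arrays, and the first 48 h array was the lowest of them. The geometric mean of the signal was 378 in Control, 3970 at 24 h and 3110 at 48 h. Cish was upregulated 10.4-fold at 24 h (log2 fold change 3.38, SE 0.173, 95% confidence interval 2.95 to 3.82, adjusted p = 0.00145) and 8.27-fold at 48 h (3.05, SE 0.173, 2.61 to 3.48, adjusted p = 0.00142). By size, these increases ranked 147 and 233 among the 24648 genes tested. Cish kept its call at both times when any 1 array was left out, with log2 fold changes between 2.82 and 3.39.

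Socs2 lay at -0.60 and -0.16 on the Control arrays, at 1.90 and 1.49 after 24 h and at 1.48 and 1.22 after 48 h. Every stimulated array was above both Control arrays, and the Control arrays differed from each other by 0.441. Socs2 was upregulated 4.21-fold at 24 h (log2 fold change 2.08, SE 0.224, adjusted p = 0.00742) and 3.32-fold at 48 h (1.73, SE 0.224, adjusted p = 0.0115). The call at 48 h was lost without the first Control array (adjusted p = 0.0594) and without the first 48H CSF1 array (0.0571). It was also lost when dim probes were not filtered out, which raised the number of genes tested to 36028 (0.0502).

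Socs2 was measured by 3 probes, and the one described so far was printed 10 times on each array. Within an array these 10 spots had a coefficient of variation of 3.98% to 7.12%. On the other 2 probes, tested in a fit of every probe on its own, the log2 fold change was 2.18 and 1.97 at 24 h and 1.87 and 1.64 at 48 h. All 3 probes were upregulated at both times, with adjusted p-values in that fit between 0.006 and 0.00884 at 24 h and between 0.00889 and 0.0138 at 48 h. On each of them, the first Control array was the lowest of the 6.

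Socs1 and Socs3 encode the members that inhibit JAK kinases directly through a kinase inhibitory region. Socs1 is best known for limiting interferon gamma signaling and Socs3 for limiting signaling through gp130, the shared receptor of the interleukin 6 cytokines, and STAT3. Socs1 lay at 0.47 and 0.51 on the Control arrays, at 1.76 and 1.87 after 24 h and at 1.92 and 2.38 after 48 h. No stimulated array came near the Control arrays, and both 48 h arrays were above both 24 h arrays. Socs1 was upregulated 2.51-fold at 24 h (log2 fold change 1.33, SE 0.178, adjusted p = 0.012) and 3.16-fold at 48 h (1.66, SE 0.178, adjusted p = 0.00703). The call at 24 h was lost without any 1 of the Control or 24H CSF1 arrays (adjusted p between 0.056 and 0.0682), although the log2 fold change stayed between 1.27 and 1.38. At 48 h it was lost only without the first Control array (adjusted p = 0.0513).

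Socs3 lay at 2.84 and 2.89 on the Control arrays, at 6.48 and 6.73 after 24 h and at 5.39 and 6.16 after 48 h. The signals were 3940 and 4530 in Control, 51000 and 63200 at 24 h and 23100 and 43100 at 48 h, with no saturated spot. Both 24 h arrays were above both 48 h arrays, which in turn were above the Control arrays. Socs3 was upregulated 13.3-fold at 24 h (log2 fold change 3.74, SE 0.267, 95% confidence interval 3.07 to 4.41, adjusted p = 0.0029) and 7.5-fold at 48 h (2.91, SE 0.267, 2.24 to 3.58, adjusted p = 0.00461). These increases ranked 112 and 251 among all genes tested. The call stood at both times without any 1 array, with log2 fold changes of 3.61 to 3.86 at 24 h and 2.52 to 3.29 at 48 h.

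**Figure D2:**
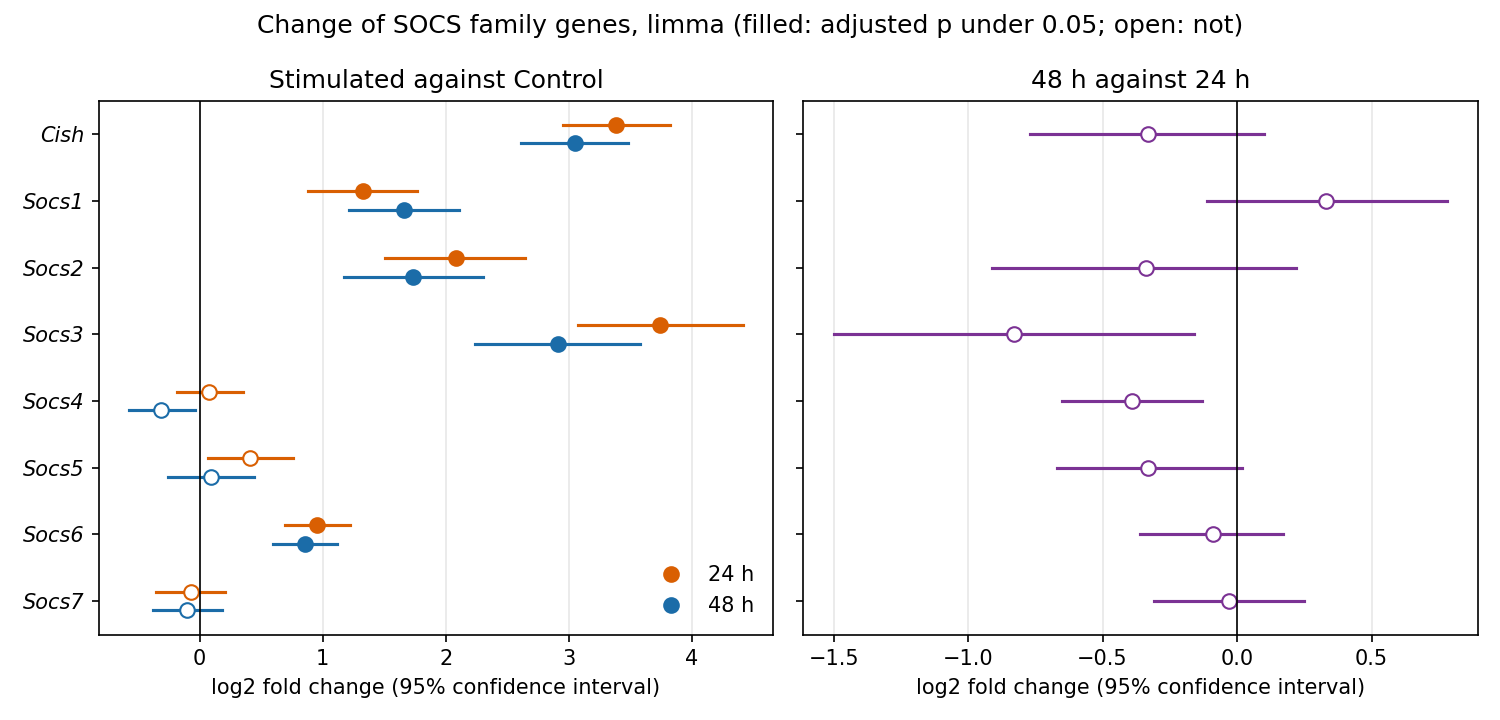
The left panel shows the log2 fold change of each SOCS gene at 24 h and 48 h against Control and the right panel that at 48 h against 24 h, with points for the estimate and lines for the 95% confidence interval of limma. Filled points have an adjusted p below 0.05. The filled points are those of Cish, Socs1, Socs2, Socs3 and Socs6 in the left panel, from 0.86 for Socs6 at 48 h to 3.74 for Socs3 at 24 h, and the right panel has none.

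Socs6 and Socs7 encode the members that bind insulin receptor signaling components and receptor tyrosine kinases, among them Kit for Socs6. Socs6 lay at 0.05 and 0.08 on the Control arrays, at 1.06 and 0.97 after 24 h and at 0.90 and 0.94 after 48 h. All stimulated arrays were above both Control arrays, and replicates differed by at most 0.0831 in any group. Socs6 was upregulated 1.93-fold at 24 h (log2 fold change 0.95, SE 0.105, adjusted p = 0.00774) and 1.81-fold at 48 h (0.86, SE 0.105, adjusted p = 0.00991), so it was called but stayed below a 2-fold change. On its other 2 probes, the log2 fold change was 1.06 and 1.01 at 24 h and 1.18 and 0.95 at 48 h. Both probes were upregulated at each time in the fit of every probe. The call at 48 h was lost without any 1 of the Control or 48H CSF1 arrays, with adjusted p-values between 0.0512 and 0.0629, while the log2 fold change stayed between 0.84 and 0.88.

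**Figure D3:**
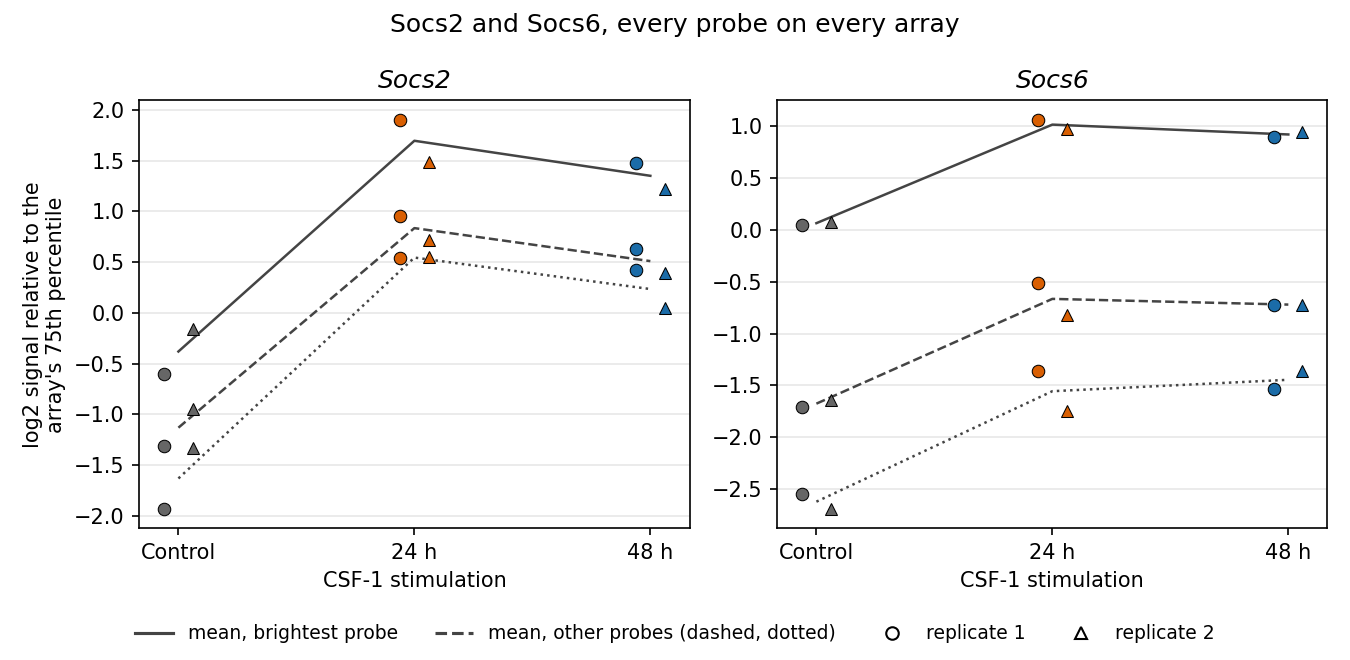
The plot shows the 3 probes of Socs2 and the 3 probes of Socs6 on every array, with the log2 signal relative to the array's 75th percentile on the y axis and the groups on the x axis. Lines join the group means, solid for the brightest probe and dashed or dotted for the others, circles are replicate 1 and triangles replicate 2. On each probe, all 4 stimulated arrays lie above both Control arrays.

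Socs7 lay at 1.84 and 1.93 on the Control arrays, at 1.78 and 1.84 after 24 h and at 1.84 and 1.72 after 48 h. These 3 groups overlapped. The log2 fold change was -0.07 at 24 h (95% confidence interval -0.35 to 0.21, adjusted p = 0.716) and -0.10 at 48 h (-0.38 to 0.18, adjusted p = 0.598), and at 24 h it was 0.01 after normexp background correction with quantile normalization. The intervals hold no change of 2-fold in either direction.

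Socs4 and Socs5 encode the members known for acting on the epidermal growth factor receptor. Socs4 lay at -0.10 and -0.05 on the Control arrays, at -0.02 and 0.04 after 24 h and at -0.41 and -0.35 after 48 h. The 24 h arrays were just above the Control arrays and the 48 h arrays below them. The log2 fold change of Socs4 was 0.08 at 24 h (95% confidence interval -0.18 to 0.35, adjusted p = 0.654), where median centring turned it to -0.20, and -0.31 at 48 h (-0.57 to -0.04, unadjusted p = 0.0303, adjusted p = 0.12 with limma). Socs5 lay at 1.63 and 1.77 in Control, at 1.97 and 2.25 after 24 h and at 1.78 and 1.79 after 48 h. Its 24 h arrays were the highest of the 6. The log2 fold change of Socs5 was 0.41 at 24 h (0.07 to 0.76, unadjusted p = 0.0272, adjusted p = 0.11 with limma) and 0.09 at 48 h (-0.26 to 0.44, adjusted p = 0.719), where median centring turned it to -0.01. At 24 h, Socs5 passed under 1 alternative, normexp background correction with quantile normalization (0.44, adjusted p = 0.042).

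The next question was whether the SOCS genes differed between 24 h and 48 h of stimulation. None of the 8 passed limma's adjusted test, and neither did any other gene tested (0%). Without adjustment, limma's p was below 0.05 for 2 of the 8, both lower at 48 h, and the methods' t-test gave 1, again without a share of all genes. With a change of at least 2-fold also required, limma called none of the 8, against 2.27% of all genes tested (0.868% higher and 1.4% lower at 48 h). The log2 fold change from 24 h to 48 h was -0.83 for Socs3 (95% confidence interval -1.5 to -0.16, unadjusted p = 0.024, adjusted p = 0.282 with limma) and -0.39 for Socs4 (-0.65 to -0.13, unadjusted p = 0.0121, adjusted p = 0.232 with limma). For Cish it was -0.33 (-0.77 to 0.10), for Socs2 -0.34 (-0.91 to 0.22), for Socs5 -0.33 (-0.67 to 0.02), and for Socs1 it was 0.33 (-0.11 to 0.78). For Socs6 (-0.09, -0.36 to 0.17) and Socs7 (-0.03, -0.31 to 0.25) the intervals lay within 0.36 of 0. The median over the 8 genes was -0.33, against -0.08 over all genes tested. The 24 h and 48 h arrays did not overlap for 7 of the 8 genes, as for 47.9% of all genes tested.

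By group means, the order was Control, 48 h, 24 h for Cish, Socs2, Socs3, Socs5 and Socs6, Control, 24 h, 48 h for Socs1, 48 h, Control, 24 h for Socs4, and 48 h, 24 h, Control for Socs7. In each of the 5 upregulated genes, the step from Control to either time passed the test and the step between the times did not. In Socs4, Socs5 and Socs7, no step of the order passed it.

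The promoters were read from the RefSeq promoter table on build GRCm38.p6, which held 4 of the 8 genes (Cish, Socs1, Socs3 and Socs4), as the 250 bases upstream of the annotated start. They were searched on both strands for TTCNNNGAA, the general form bound by STAT dimers, for its narrower form TTCCNGGAA and for the core of the interferon-stimulated response element, in which GAAA is repeated after a spacer of 2 bases of any kind. Every match of the narrower STAT form is also a match of the general one. Of 32851 promoters of the same length, 7.02% held TTCNNNGAA, 0.913% held TTCCNGGAA and 2.98% held the GAAA repeat. The upstream sequences of Cish, Socs1 and Socs3 are printed 5′ to 3′ on the strand of the gene, because these 3 were upregulated at both times, and capitals mark the matches. They lie at chr9:107296409-107296658 on the plus strand (Cish), chr16:10785537-10785786 on the minus strand (Socs1) and chr11:117969367-117969616 on the minus strand (Socs3).
Cish: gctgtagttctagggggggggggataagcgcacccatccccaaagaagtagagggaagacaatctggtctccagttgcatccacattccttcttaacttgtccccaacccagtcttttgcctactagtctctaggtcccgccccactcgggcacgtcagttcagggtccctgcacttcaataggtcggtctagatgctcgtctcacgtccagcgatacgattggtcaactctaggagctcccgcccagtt
Socs1: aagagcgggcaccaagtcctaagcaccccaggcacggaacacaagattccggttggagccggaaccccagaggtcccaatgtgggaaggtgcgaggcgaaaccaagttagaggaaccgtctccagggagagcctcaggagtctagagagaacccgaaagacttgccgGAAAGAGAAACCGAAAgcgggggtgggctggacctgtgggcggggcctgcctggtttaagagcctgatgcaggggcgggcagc
Socs3: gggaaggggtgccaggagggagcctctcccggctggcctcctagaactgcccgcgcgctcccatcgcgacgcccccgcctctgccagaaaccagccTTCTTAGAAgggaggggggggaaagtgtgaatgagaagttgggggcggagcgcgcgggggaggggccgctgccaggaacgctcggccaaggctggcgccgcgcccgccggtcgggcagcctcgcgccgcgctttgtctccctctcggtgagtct

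The Socs1 sequence held 2 overlapping matches of the GAAA repeat, from -83 to -74 and from -77 to -68 relative to the start. The Socs3 sequence held 1 match of TTCNNNGAA, from -154 to -146. The Cish and Socs4 sequences held none of the 3 letter patterns in this window, and the G and C content was 55.2% for Cish, 61.2% for Socs1, 71.6% for Socs3 and 70.4% for Socs4. These matches describe the letters only, and binding was not measured.

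For each upregulated SOCS gene, the 3 genes with the most similar course over the 6 arrays were sought among 21314 genes that were well above background on all arrays, as the root mean square difference after each gene was centred on its own mean. For Socs3 these were Bcl3, an inhibitor of kappa B family protein (0.204 on the log2 scale), Stat5a (0.234) and Evi2a (0.255). For Cish they were the transcript BC057675 (0.173), the membrane glycoprotein gene Pdpn (0.174) and a probe without a gene name, A_55_P1998811 (0.188). Among the 5 upregulated SOCS genes themselves, Cish and Socs3 were the most similar pair (0.239), followed by Socs1 and Socs6 (0.354). For Socs2, they were the SH2 adaptor gene Sh2d3c (0.152), the semaphorin gene Sema4b (0.153) and Gm4588 (0.178). For Socs1 they were a transcript listed as ENSMUST00000082107 (0.0617), Tmem106a (0.0816) and Fam46a (0.0902), and for Socs6 the ubiquitin ligase gene Trim56 (0.0373), the nuclear receptor gene Rorb (0.044) and Nelf (0.0492).

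Genes that act around the SOCS proteins were described by lists. For comparison with each list, 8.02% of all genes tested were higher and 5.99% lower at 24 h. At 48 h, the shares were 6.58% and 7.38%. Leaving out any 1 array also lowered the number of calls against Control over all genes tested. The lists began with the cytokines that induce SOCS genes. Of 11 ligands tested out of 24, 5 rose and 1 fell at 24 h, and 3 rose and none fell at 48 h, with a median log2 fold change of 0.48 and 0.08. Among those that rose, Il6 and Csf2 at both times and Lif at 24 h passed the filter only through stimulated groups, where they were high. The ligands not tested did not pass that filter, so these counts are not independent of it. Il6, the main gp130 cytokine, had signals of 4.73 and 21.2 on the Control arrays, of which only the second was well above background, 350 and 431 after 24 h and 455 and 1050 after 48 h. The stimulated arrays were far above both Control arrays, and the log2 fold change of Il6 was 5.27 (adjusted p = 0.012) and 6.12 (adjusted p = 0.00859). Il6 passed the filter only through the stimulated groups, where it was high, so these adjusted p-values are not independent of the filter. With a Control array near the floor, the size of its change is uncertain. Csf2, which encodes the cytokine GM-CSF, was well above background on 0 Control arrays, 2 24 h arrays and 1 48 h array. It passed the filter only through the 24 h group, where it was high, so its adjusted p-values are not independent of the filter. Its increase was at least 2.21-fold at 24 h (adjusted p = 0.013) and at least 1.8-fold at 48 h (adjusted p = 0.0198). Here the bound sets each Control array at the lowest signal well above background, or at its own signal where that was higher. Clcf1, another gp130 cytokine gene, rose by 1.59 on the log2 scale at 24 h (adjusted p = 0.0107) and by 0.95 at 48 h (adjusted p = 0.0393). Csf1 itself did not pass the test (-0.36, adjusted p = 0.476, and -0.70, adjusted p = 0.184). At 24 h, 1 ligand rose without the second Control array or either 24H CSF1 array, and 3 rose without any other array. At 48 h, 1 rose without either Control array or the second 48H CSF1 array, 2 without the first 48H CSF1 array and 3 without either 24H CSF1 array.

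Of 22 receptors tested out of 26 on which SOCS proteins act, 6 rose and 3 fell at 24 h and 4 rose and 2 fell at 48 h, with a median log2 fold change of 0.33 and 0.25. Il13ra1 and Il4ra, which form a receptor of interleukins 4 and 13, were among those that rose at both times. The log2 fold change of Il4ra was 2.07 (adjusted p = 0.0134) and 1.5 (adjusted p = 0.0309). That of Il13ra1 was 3.90 (adjusted p = 0.00487) and 3.87 (adjusted p = 0.00458), with 1 of 2 Control arrays well above background. Il13ra1 passed the filter only through the stimulated groups, where it was high, so its adjusted p-values are not independent of the filter. Ghr, the growth hormone receptor gene, rose by 1.33 (adjusted p = 0.00906) and 1.95 (adjusted p = 0.00325). At 24 h, 2 receptors rose without the first Control array or either 24H CSF1 array, 3 without the second Control array and 4 without either 48H CSF1 array, and in the first 4 of these fits none fell. At 48 h, 2 rose without the first Control array and 3 without any other array, and 1 fell without either 24H CSF1 array and none without any other.

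Of the 4 JAK kinases, Jak2 and Jak3 rose at both times. The signals of Jak2 were 3050 and 3820 in Control, 6760 and 8030 at 24 h and 7050 and 9170 at 48 h, with log2 fold changes of 1.1 (adjusted p = 0.0121) and 1.24 (adjusted p = 0.00921). Those of Jak3 were 70.6 and 88.3, 285 and 293, and 230 and 278, with log2 fold changes of 1.86 (adjusted p = 0.00248) and 1.69 (adjusted p = 0.0024). Neither gene's stimulated arrays overlapped the Control arrays, as held for 59% of all genes tested at 24 h and 58.8% at 48 h. Jak1 (-0.37, adjusted p = 0.0979) and Tyk2 (0.10, adjusted p = 0.699) did not pass at 24 h, nor at 48 h. The list had 1 call instead of 2 at 24 h without the first or second Control array or the second 24H CSF1 array, and at 48 h without the first Control or the second 48H CSF1 array.

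Of 6 STAT factors tested out of 7, Stat5a, Stat2 and Stat3 rose at both times, and none fell at either time, also without adjustment in limma and in the methods' t-test. Stat5a, a main activator of Cish and Socs2, had signals of 45.1 and 53.1 in Control, 571 and 629 at 24 h and 200 and 325 at 48 h, with log2 fold changes of 3.60 (adjusted p = 0.00176) and 2.39 (adjusted p = 0.00393). Its 24 h arrays were the highest and its Control arrays the lowest. Stat2 rose by 2.77 (adjusted p = 0.00235) and 3.54 (adjusted p = 0.00127), and Stat3 rose by 1.35 (adjusted p = 0.0129) and 1.04 (adjusted p = 0.0256). The paralog Stat5b did not pass (0.27, adjusted p = 0.256, and -0.09, adjusted p = 0.711). At 24 h, 2 STAT factors rose without either 24H CSF1 array and 3 without any other array.

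The partners with which the SOCS box forms a ubiquitin ligase were Elob and Eloc (Elongin B and C), Cul5, Rnf7, Arih2, Ube2f and Nedd8. None of these 7 genes passed limma's adjusted test at 24 h or 48 h, with medians of -0.11 and -0.17. Without adjustment, limma's p was below 0.05 for 1 of them at 24 h and 3 at 48 h, all lower, and with the methods' t-test for 2 and 1. The signal of Elob was 78200 and 88000 in Control, 79400 and 85400 at 24 h and 80400 and 88500 at 48 h, so the 3 groups overlapped. The largest differences were those of Rnf7 (-0.44, adjusted p = 0.0944, and -0.39, adjusted p = 0.121). Of 20 other SOCS box proteins tested out of 28, 1 rose at 24 h, and none passed at 48 h. That one was Asb2, at least 1.86-fold higher (adjusted p = 0.0101), which was named after its value was seen. It was not well above background in Control or at 48 h, so it passed the filter only through the 24 h group. Without adjustment at 48 h, limma's p was below 0.05 for 1 higher and 2 lower genes of this list, and the methods' t-test gave 1 and 1.

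Of 13 other negative regulators of JAK-STAT signaling, 2 rose and none fell at each time. Usp18, which encodes a protease that removes ISG15 and restrains the type I interferon receptor, had signals of 38.5 and 106 in Control, 5870 and 7220 at 24 h and 12300 and 22600 at 48 h. It rose by 6.66 (adjusted p = 0.00292) and 8.04 (adjusted p = 0.00152). Ptpn6, the gene of the phosphatase SHP-1, rose by 1.27 (adjusted p = 0.0277) and 1.16 (adjusted p = 0.0347). The other 11, among them the Pias genes and Ptpn2, did not pass, and limma's unadjusted p was below 0.05 for 2 lower genes at each time. Without any 1 of the Control or 24H CSF1 arrays the count fell to 1 at 24 h, and at 48 h it was 1 without any 1 of the 6 arrays.

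Genes known to respond to interferons or to STAT factors differed by list. Of 9 interferon-responsive genes, 7 rose at 24 h and 8 at 48 h and none fell, with medians of 2.76 and 3.49, or 2.73 and 2.79 with Tap1, not well above background in Control, at its lower bound. Ifit1 (5.73 and 7.39), Gbp2 (5.43 and 6.89) and Cxcl10 (5.55 and 6.55) had the largest log2 fold changes, with adjusted p-values from 0.000927 to 0.0028. Of 13 STAT3-responsive genes tested out of 14, 7 rose and none fell at 24 h and 7 rose and 1 fell at 48 h, with medians of 2.19 and 0.80. Bcl3 (3.55 and 2.84, adjusted p = 0.00134 and 0.00142), Fos (2.92 and 2.08, adjusted p = 0.00846 and 0.02) and Cebpd (2.70 and 2.17, adjusted p = 0.013 and 0.0237) changed most. The gene that fell at 48 h was Birc5 (-0.85, adjusted p = 0.0208), which encodes survivin. At 24 h, 4 STAT3-responsive genes rose without the second Control array, and between 5 and 8 without any other array. At 48 h, 1 STAT3-responsive gene rose without the first or the second Control array, 3 without the second and 4 without the first 48H CSF1 array.

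Of 8 STAT5-responsive genes tested out of 9, none rose at either time, whereas 2 fell at 24 h and 1 at 48 h, with medians of 0.03 and 0.06. The list leaves out the SOCS genes themselves. Cish and Socs2 are therefore not counted in it, and the part of STAT5 in any of these changes was not tested. Without adjustment, limma's p was below 0.05 for 0 higher genes of the list at 24 h and 1 at 48 h, and the methods' t-test gave 0 and 0. Bcl6, a transcriptional repressor that STAT5 is known to repress, fell by 1.55 on the log2 scale at 24 h (adjusted p = 0.00309) and by 1.29 at 48 h (adjusted p = 0.00428). Its signals were 877 and 1060 in Control, 341 and 324 at 24 h and 375 and 409 at 48 h. The stimulated arrays did not overlap the Control arrays, as for 59% of all genes tested at 24 h and 58.8% at 48 h. Ccnd1, the cyclin D1 gene, fell by 0.76 at 24 h (adjusted p = 0.0292). The list held 1 lower gene instead of 2 at 24 h without any 1 of the Control or 24H CSF1 arrays. Pim1, which stands in this list and the STAT3 list, did not pass (0.47, adjusted p = 0.246, and 0.75, adjusted p = 0.0954). No gene of any of these lists passed the adjusted test between 48 h and 24 h.

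**Figure D4:**
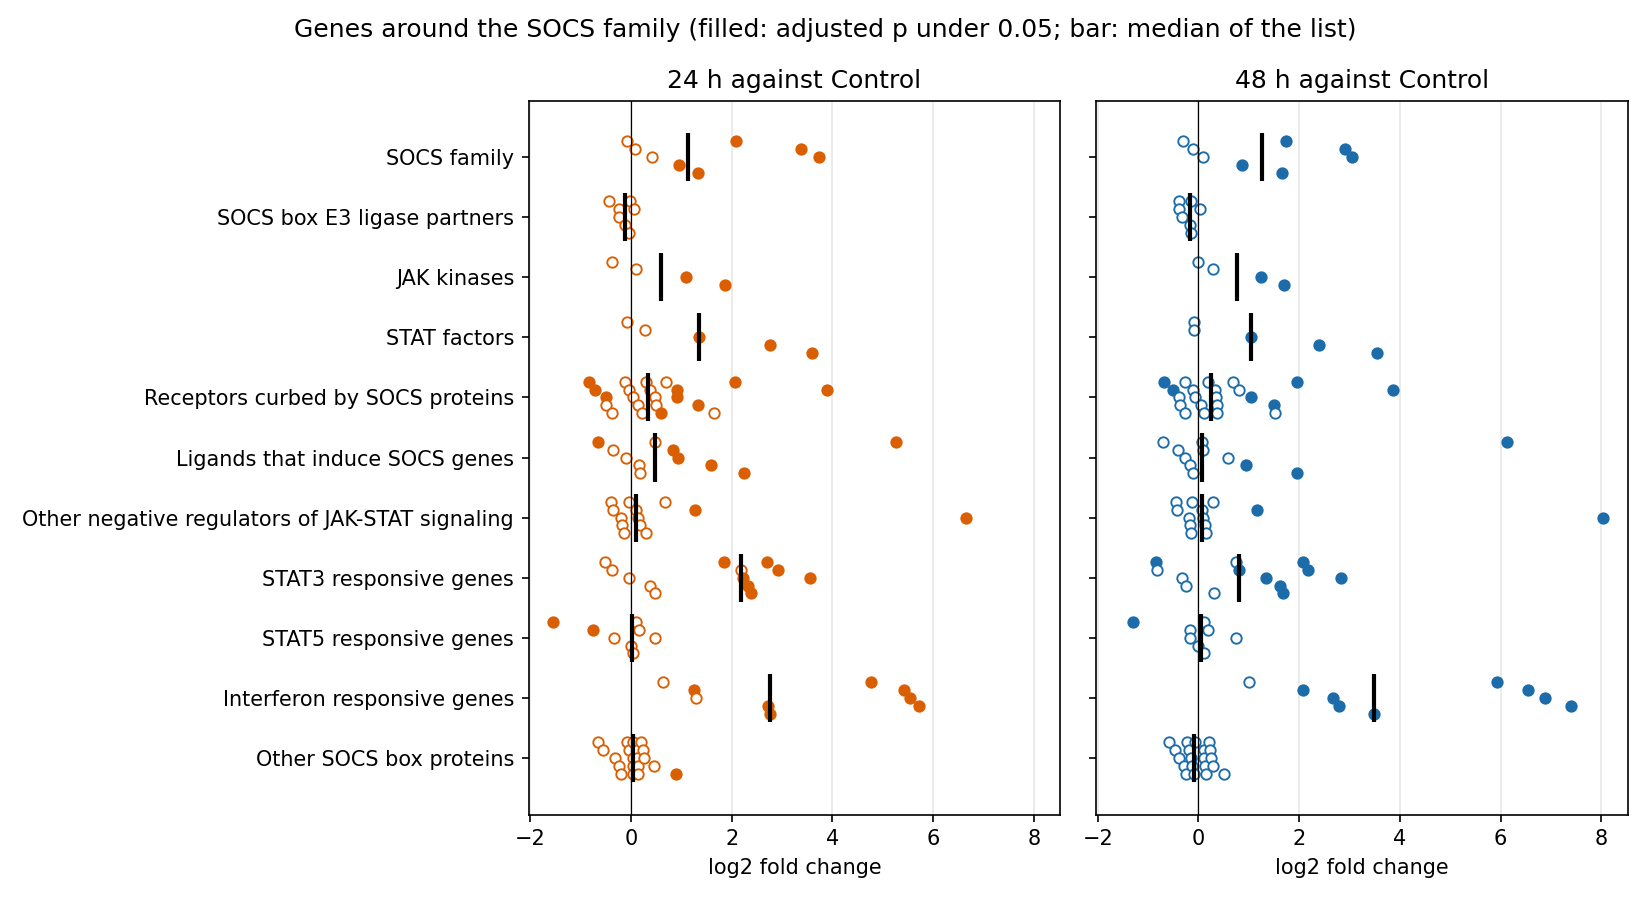
Each point is a gene of the SOCS family or of 1 of the 10 lists around it that was tested and is reported here, with the log2 fold change against Control on the x axis, at 24 h in the left panel and 48 h in the right. Filled points have an adjusted p below 0.05, vertical bars mark the median of the points drawn for a list, and fitted values are drawn also for genes that were dim in Control. The filled points of the SOCS family lie between 0.86 and 3.74, and the SOCS box ligase partners have none.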

How the data were processed

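RNA from N18-Fms cells was hybridized to 6 single-color (Cy3) Agilent mouse arrays, 2 for each of 3 groups taken from the labels. The authors scanned the arrays and extracted spot intensities with Agilent Feature Extraction 11.0.1, and the deposited processed intensity is background-subtracted and detrended within the array but not normalized between arrays. The log2 values that the authors deposited for the whole series carry a constant for each array and a baseline for each probe, with the normalization not given in the sources used here. They were used as an alternative after 99.78% of the differences between arrays of 44323 probes lay within 0.05 of the scanner values. Their column medians were 0.026, -0.037, 0.174, 0.007, -0.009 and -0.024.

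Here, log2 of the processed intensity minus the array's 75th percentile over spots other than controls was taken, without outlier spots, and spots of a probe were averaged. A gene was represented by its brightest probe and tested if that probe was well above background on both arrays of a group. The 6 arrays were fitted together with limma 3.58.1 in R 4.3.3 (3 residual degrees of freedom, prior 2.39), with 3 comparisons and Benjamini-Hochberg adjustment over 24648 genes at 0.05. The script was tested on simulated data. Alternatives were other background corrections, normalizations, filters, probe summaries, blocks, the t-test named in the methods, and leaving out each array. The number of arrays limits the precision, and the RNA came from 2 experiments on 1 clone. The p-values of limma measure the spread between the 2 arrays of a group, pooled over 3 groups and moderated across genes. In the 24H CSF1 group, this spread also holds a difference of slide and scan. The SOCS genes and all lists were chosen with earlier results of these data known. From each list, up to 3 genes called at both times in the same direction were named by their mean absolute log2 fold change, and the others named were chosen after their values were seen. Some genes of the lists are not reported here.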

Additional observations from a re-analysis of the deposited data

Results flagged for a closer look

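Socs4 drew attention because both 24H CSF1 arrays lay above both Control arrays (-0.02 and 0.04 against -0.10 and -0.05 on the log2 scale) while both 48H CSF1 arrays lay below them (-0.41 and -0.35). The difference between the times was -0.39 (unadjusted p = 0.0121, adjusted p = 0.232 with limma over all genes tested), and neither time differed from Control after adjustment.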

How the results depend on the processing

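No alternative turned a SOCS gene that passed the test in the opposite direction. With Benjamini-Hochberg adjustment of the methods' t-test, 0 SOCS genes were called at 24 h and 0 at 48 h, as were 0 of all genes tested, whereas at an unadjusted p below 0.05 and a 2-fold change it called 4 at each time. When 1 array was left out, 4 to 5 SOCS genes were called at 24 h and 2 to 5 at 48 h, and none between the times. Of all genes tested, 3453 were called at 24 h and 3440 at 48 h. These counts were 1321 and 869 when dim probes were kept, 1077 and 2116 with the slide as a block, 898 to 2539 and 889 to 2116 without 1 array, 2539 and 2116 in fits of only the groups compared, 1894 and 1599 at an unadjusted p below 0.05 and a 2-fold change, 1352 and 1161 for the methods' t-test at that threshold, and 4712 and 5477 with an intensity trend in the spread. The labels do not say whether replicate numbers pair the arrays. The correlation of replicate differences was 0.128 for Control and 24H CSF1, 0.0943 for Control and 48H CSF1 and 0.199 for 24H CSF1 and 48H CSF1. With the replicate number as a block, 5, 5 and 0 SOCS genes were called in the 3 comparisons. Of all genes tested, that block called 3800 at 24 h and 3967 at 48 h.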
